A study of Mus musculus with 59 samples.

Results

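Drosha and Dicer are the nucleases that make microRNAs, and their precipitates from chromatin of mouse embryonic stem cells were set against each other. The comparison used 3 of the 59 libraries of the series, which holds 24 chromatin immunoprecipitation (ChIP) and 35 RNA libraries: 1 precipitate of tagged Drosha, 1 precipitate of tagged Dicer and 1 input of parental cells, the sheared chromatin before any pulldown. They were taken by their labels, with no measured value used to choose them. Drosha works in the nucleus, where its partner DGCR8 recognises the hairpin in a primary microRNA transcript while RNA polymerase II is still making it, and Drosha cuts the hairpin out; the pair is called the Microprocessor. The freed hairpin is exported to the cytoplasm, where Dicer removes its loop. The comparison therefore asks where the genome carries signal of the nuclear enzyme beyond that of the largely cytoplasmic one.

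All lines were embryonic stem (ES) cells of a 129xC57Bl6 hybrid background, grown with LIF at 37 °C. The Drosha library came from the genotype Rosa26:BirA, DROSHA FLAG/Avi, in which the endogenous gene carries the tag and the bacterial enzyme BirA attaches biotin to it. The Dicer library came from Rosa26:BirA, DICER FLAG/Avi, and the parental input from Rosa26:BirA cells with no tagged protein. Tagged proteins were pulled down on streptavidin beads after crosslinking with disuccinimidyl glutarate (DSG), which reaches over longer distances than formaldehyde and, per the series' design text, was added to catch proteins on nascent transcripts. The DGCR8 precipitate made with DSG from Rosa26:BirA, DGCR8 FLAG/Avi cells, with its own input, is given beside the results because it shares no library with the comparison. Each condition had 1 library of 1 line, so every value is a description, with no test and no p-value. Streptavidin pulldown from untagged cells and inputs of the Drosha and Dicer lines were not analysed here. In bulk chromatin, signal in fewer cells and less signal per cell cannot be told apart.

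Reads were counted in 5 kb windows. The Drosha library held 16064278 counts, the Dicer library 59829916 and the parental input 30001899, with medians of 25, 72 and 35 counts per window over 526765 windows of chromosomes 1 to 19 and X. Ratios are given as log2 of CPM, counts scaled to an equal library total, after 1 count was added in the smaller library and its equal share in the larger, so 1 on this scale is a 2-fold difference. A window or gene was counted where both libraries together had at least 100 counts, and it passed the 2-fold criterion at a fold of at least 2. The intervals are exact 95% binomial intervals and cover counting error only. They understate the error: among 15768 windows with no gene and near-median input, the variance of the counts was 8.20 times the mean in the Drosha library and 5.01 times the mean in the Dicer library, where counting error alone would give about 1.

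The Drosha library stood apart at genes of milk proteins, which are made in the mammary gland. Csn2, the gene of beta-casein, had 2647 counts in the Drosha library and 63 in the Dicer library, against 22 in the parental input. Wap, which encodes whey acidic protein, had 3009 counts in the Drosha library and 354 in the Dicer library, against 176 in the parental input. DGCR8 had far less there, with 102 counts against 37 in its input at Csn2 and 186 against 306 at Wap. Of 8 milk protein genes, a list drawn up after the highest windows were seen, 7 passed the 2-fold criterion for Drosha over Dicer, with a median log2 ratio of 4.69 and Lalba, at 0.87, as the exception. Their Dicer over input median was 0.19. Apart from Csn3, at 0.08 and 0.15 CPM, no milk protein gene had a read in the parental RNA libraries. The cause was not tested, and counts that these genes touch are given with and without them.

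The sequences below are those of 4 hairpin clusters at which a hairpin window or the window beside it was among the highest for Drosha over Dicer, with a hairpin that needs no Microprocessor for contrast. They are RefSeq entries on GRCm38.p6, written 5′ to 3′, and in mature microRNAs the capitals mark the seed, bases 2 to 8, which pairs with targets. The miR-290 cluster on chromosome 7, the main microRNA locus of mouse ES cells, gives 3 products with 1 seed and miR-293-3p with another.
mmu-miR-291a-3p: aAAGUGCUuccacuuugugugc
mmu-miR-294-3p: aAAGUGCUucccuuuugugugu
mmu-miR-295-3p: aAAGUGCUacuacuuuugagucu
mmu-miR-293-3p: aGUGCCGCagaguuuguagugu
The miR-17 cluster on chromosome 14 and its paralogue on the X chromosome, the miR-106a cluster, share a seed in the first 4 sequences that is offset by 1 base from that of miR-294-3p, and another in miR-92a-3p and miR-363-3p.
mmu-miR-17-5p: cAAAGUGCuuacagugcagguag
mmu-miR-20a-5p: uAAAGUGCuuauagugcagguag
mmu-miR-106a-5p: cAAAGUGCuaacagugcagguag
mmu-miR-20b-5p: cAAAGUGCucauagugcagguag
mmu-miR-92a-3p: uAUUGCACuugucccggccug
mmu-miR-363-3p: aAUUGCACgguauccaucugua
The let-7 cluster on chromosome 13 makes the let-7 seed, whose processing at the Dicer step is held back by Lin28a in stem cells.
mmu-let-7a-5p: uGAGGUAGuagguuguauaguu
mmu-let-7f-5p: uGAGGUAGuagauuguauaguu
mmu-let-7d-5p: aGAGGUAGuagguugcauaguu

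The hairpins themselves show what each enzyme meets: Drosha cuts at the base of the stem, outside the capitals, and Dicer cuts beside the loop between them. Capitals mark the mature arms. Mir294 lies at chr7:3220641-3220724 on the plus strand and Mirlet7a-1 at chr13:48538179-48538272 on the minus strand. Mir484, at chr16:14159626-14159692 on the plus strand, starts at or near its own transcription start, so its hairpin is made without Drosha and is cut by Dicer alone.
Mir294: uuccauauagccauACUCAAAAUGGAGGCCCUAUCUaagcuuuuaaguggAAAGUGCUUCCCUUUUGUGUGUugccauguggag
Mirlet7a-1: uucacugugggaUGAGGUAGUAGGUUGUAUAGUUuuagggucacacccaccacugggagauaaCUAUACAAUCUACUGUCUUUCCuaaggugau
Mir484: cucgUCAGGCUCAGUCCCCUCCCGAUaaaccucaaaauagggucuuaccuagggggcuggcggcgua

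The Drosha signal peaked on microRNA clusters that are active in ES cells, and the Dicer signal did not. The window of Mir293, Mir294 and Mir295 (chr7:3220001-3225000, mm10) held 4065 Drosha counts and 79 Dicer counts, or 254 and 1.32 CPM, against 78 counts, 2.60 CPM, in the parental input. The log2 ratio of Drosha over Dicer was 7.52, with an interval of 7.26 to 7.92, and only the Csn2 window was higher among all counted windows with limited input. The Dicer over input ratio in the same window was −0.96 (−1.45 to −0.51), so the Dicer precipitate held fewer reads there than the input did, relative to depth. The 2 inputs of the set also differed there, with DGCR8 input over parental input at −0.52. The window before it, with Mir290a, Mir291a, Mir292 and Mir291b, held 1189 Drosha counts and 200 Dicer counts, a ratio of 4.44. DGCR8 peaked in the same pair of windows, with 27978 counts against 80 in its input and 8377 against 195.

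At the miR-17 and miR-106a clusters the highest Drosha window was not the one with the hairpins but the next one in the direction of transcription. The hairpin window of the miR-17 cluster (chr14:115040001-115045000) held 175 Drosha and 165 Dicer counts, a ratio of 1.96. The window after it (chr14:115045001-115050000), with the rest of the host transcript Mir17hg, held 1209 Drosha and 116 Dicer counts against 71 in the parental input, a ratio of 5.23 (5.00 to 5.57). Dicer over input there was −0.28, with an interval that includes 0, from −0.73 to 0.16. On the X chromosome, the hairpin window of the miR-106a cluster held 193 Drosha and 94 Dicer counts, a ratio of 2.89, while the window 3′ of it (chrX:52735001-52740000) held 506 Drosha and 23 Dicer counts, a ratio of 6.14 (5.75 to 7.03).

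The let-7 cluster on chromosome 13, on the minus strand, also had more Drosha counts in the 3′ window, but there the ratio was lower than in the hairpin window. Its hairpin window (chr13:48535001-48540000) held 203 Drosha and 20 Dicer counts, a ratio of 5.00 (4.58 to 5.98). The window 3′ of it (chr13:48530001-48535000) held 671 Drosha and 131 Dicer counts, more in each library, with a ratio of 4.22. Both windows thus held more Drosha than Dicer signal for depth. Among hairpins outside the large clusters, Mir148a had 493 Drosha and 199 Dicer counts and a ratio of 3.18, Mir21a had 452 and 240 counts and a ratio of 2.79, and Mir130a had 855 and 543 counts and a ratio of 2.54.

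**Figure D1:**
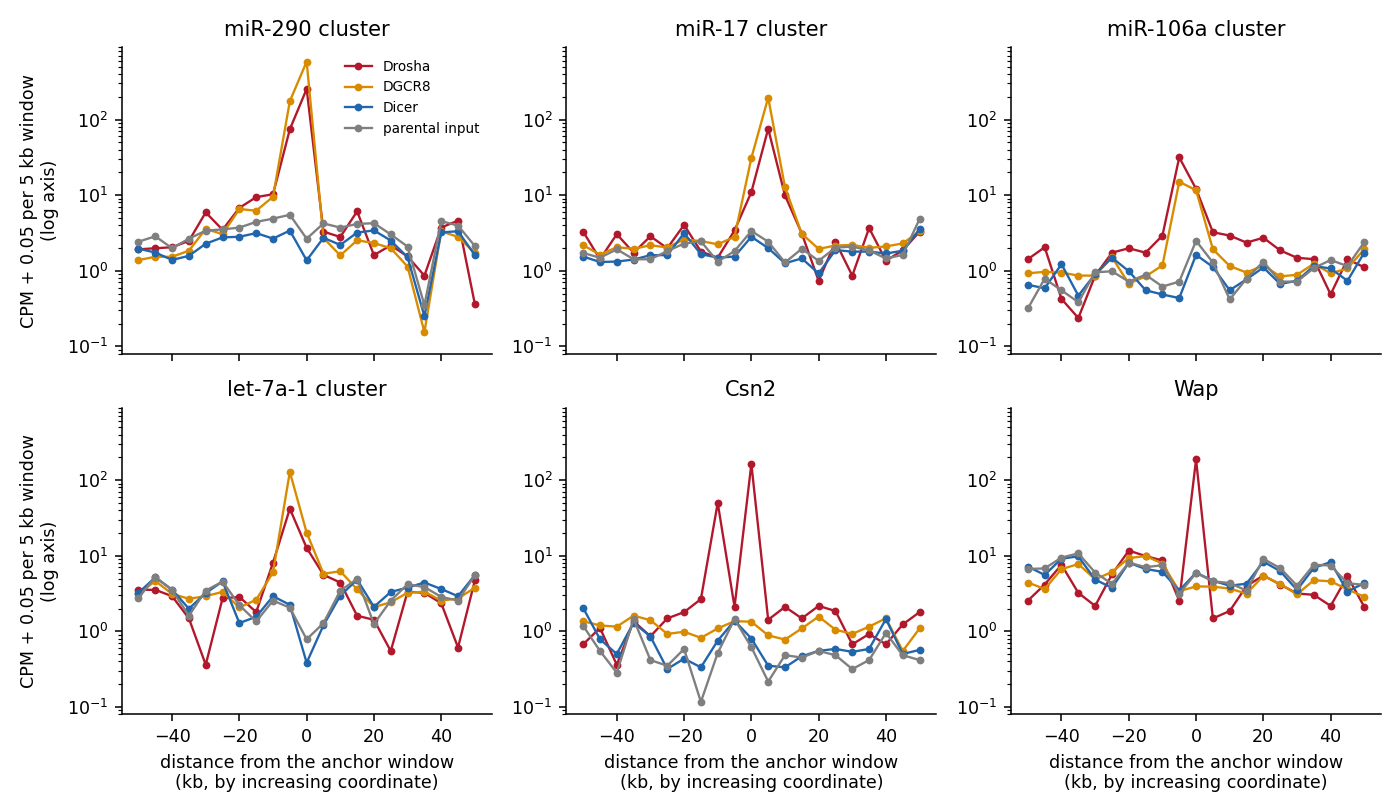
Read density around 4 microRNA clusters and 2 milk protein genes, in CPM + 0.05 per 5 kb window on a log axis, against the distance in kb from an anchor window, by increasing coordinate, for 1 library each of Drosha, DGCR8, Dicer and parental input. Drosha and DGCR8 peak together at the microRNA clusters, with 254 CPM for Drosha at the miR-290 cluster, Dicer stays close to the parental input, and at Csn2 and Wap only Drosha rises above the other 3 libraries.

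To see whether the shift towards the 3′ side was general, hairpin clusters were taken in which a window of the cluster or a direct neighbour had an 8-fold excess of DGCR8 over its input, a choice that uses neither Drosha nor Dicer. Described here are 14 such clusters, and where a cluster spans several windows its highest one was used. High-input windows were left out, among them those of Mir182, Mir130a and Mir324, with DGCR8 over input at 4.31, 3.17 and 3.18. Mir30b is also missing from the 14, with DGCR8 over input at 3.43 in its hairpin window and 3.89 beside it. Drosha over Dicer there was 2.53 and 2.50. The miR-17 cluster and that of Mir16-1 lie on chromosome 14, where the median DGCR8 over its input was 0.83. In 13 of the 14 the Drosha over Dicer ratio was higher in the 3′ window than in the 5′ window. Medians were 1.25 in the 5′ window, 2.21 in the hairpin window and 2.89 in the 3′ window, and 8, 12 and 13 of the 14 clusters had a ratio of at least 2-fold in them. The exception was the miR-290 cluster, with 1.94 on the 5′ side and 0.27 on the 3′ side. Its hairpins, at chr7:3218626-3220841 on the plus strand, lie across both windows of the peak. Most of the higher one, chr7:3220001-3225000, lies 3′ of the last hairpin, so the window edges bear on this exception.

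Single clusters showed how steep the change across a hairpin could be. At Mirlet7i the 5′ window held 105 Drosha and 196 Dicer counts, a ratio of 0.98, and the 3′ window 428 and 169, a ratio of 3.21. At the cluster of Mir15b and Mir16-2, inside the condensin gene Smc4, the ratio was −0.93 on the 5′ side, with 23 Drosha and 167 Dicer counts, and 3.07 on the 3′ side, with 82 and 33. At Mir34a, a target of p53, the hairpin window had a ratio of −0.66, with 66 Drosha and 391 Dicer counts, while the 3′ window, with 196 and 362, was at 1.00. Dicer over input had no such slope: its medians over the 14 clusters were −0.16, −0.07 and −0.24, no window was 2-fold higher, the let-7 hairpin window was 2-fold lower at −1.06, and the 3′ window was above the 5′ window in 5 of 14.

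Over the whole genome the Drosha library differed from the Dicer library far more than the Dicer library differed from input. For Drosha over Dicer 263618 windows were counted, of which 22630 (8.58%) were at least 2-fold higher and 46448 (17.6%) at least 2-fold lower. For Drosha over parental input 9921 of 167146 windows (5.94%) were higher and 32196 (19.3%) lower. For Dicer over parental input 529 of 276977 windows (0.191%) were higher and 120 (0.0433%) lower.

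These shares need a yardstick, and the pair of inputs, neither of which holds a precipitate, gives one. DGCR8 input over parental input had 860 of 237994 windows (0.361%) higher and 1356 (0.57%) lower, shares larger than those of Dicer over input. The SD of the log2 ratio over windows was 0.921 for Drosha over Dicer, 0.869 for Drosha over input, 0.299 for Dicer over input and 0.351 between the inputs. So the Dicer precipitate lay as close to the parental input as the DGCR8 input did. Over 268063 windows, Spearman's rho between counts was 0.490 for Drosha with input and 0.934 for Dicer with input, a description across windows that share mappability and copy number.

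The Drosha library was also flatter than the other libraries. The median Drosha over Dicer ratio was 0.93 in the second and −0.61 in the highest of 10 equal sets of windows ordered by parental input, while Dicer over input was 0.16 and −0.08 in the same sets. Counts of windows and genes past 2-fold therefore move with input level too, and medians of gene lists are also given after the median of each of 20 input bins was set to 0. At the low end, 10 windows named by rule held 0 Drosha counts, which allows up to 3 counts or 0.187 CPM, with 201 to 264 Dicer counts. They lay in or near Gm42340, Trp73, Atg4a, Cpt1a, Wdfy4 and Abca4.

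With high-input windows left out, 124 of 235553 counted windows (0.0526%) were at least 8-fold higher in Drosha than in Dicer, in 104 separate regions, and 116 were left without the milk protein genes. In the other direction 1213 windows (0.515%) were at least 8-fold lower. Of the 124, 98 had under 100 Dicer counts and so were counted only through their Drosha reads. The median window of the 124 held 182.5 Drosha counts and 46.5 Dicer counts. They were richer than counted windows in general in genes (83.1% against 66.4%), in genes of the highest RNA quartile in parental cells (46.8% against 11.4%) and in windows in or within 5 kb of a microRNA gene (12 windows, 9.68% against 0.662%). Of these 12, 5 held the hairpin itself: the pair of miR-290 windows, that of the let-7 cluster, that of Mir148a, and that of Gm25500, an annotated microRNA gene inside Taf1d, with 211 Drosha and 60 Dicer counts and a ratio of 3.63. The window of Ncl, the nucleolin gene, next to the annotated hairpin Gm24148, held 624 and 183 counts and a ratio of 3.64. The window of Gm24148 itself also holds Snora75, a gene of a small nucleolar RNA, so signal of these genes cannot be told apart there. That of Gm25500 also holds other annotated genes beside Taf1d, so the same limit applies.

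**Figure D2:**
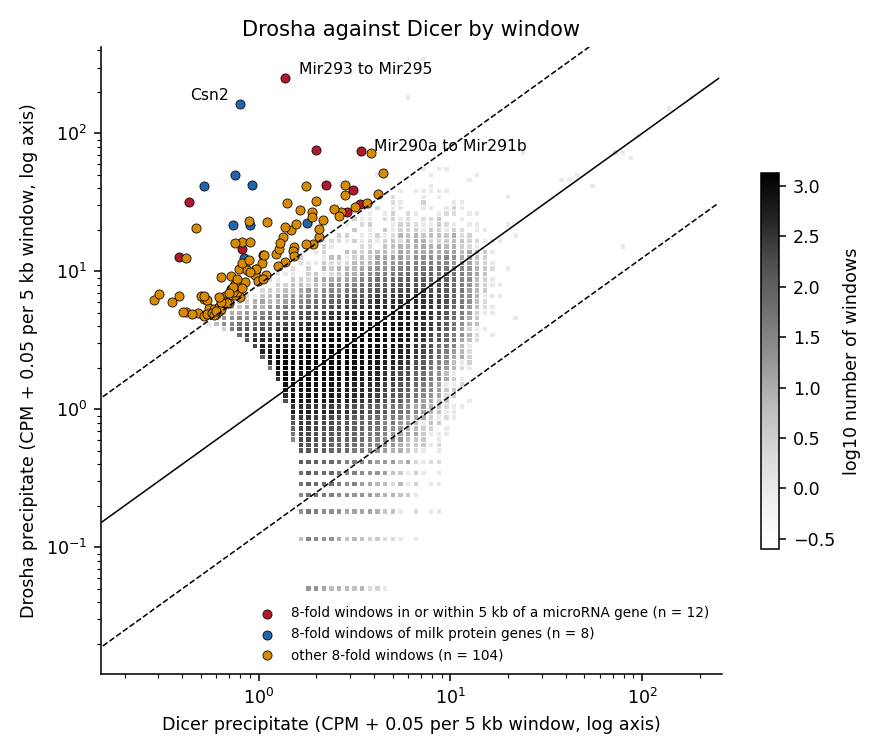
Drosha against Dicer signal, both in CPM + 0.05 per 5 kb window on log axes; grey squares give the log10 number of counted windows, the solid line is equality and the dashed lines an 8-fold difference in each direction. Of the 124 windows at least 8-fold higher in Drosha, which leave out high input, 12 lie in or within 5 kb of a microRNA gene, 8 at milk protein genes and 104 elsewhere. Among the 124, the window of Mir293 to Mir295 and that of Csn2 are highest. A grey square near log10 2.54 for Drosha and 0.86 for Dicer is 1 window outside the 124, with more Drosha signal than any of them.

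Of the 10 windows highest for Drosha over Dicer, 3 lay at neither a microRNA cluster nor a milk protein gene, those of Hnrnpa3 and Eif4a2 and 1 far from any gene. Of the 124, 7 held a gene of a small nucleolar RNA (snoRNA), a class that guides the chemical modification of ribosomal RNA and is made from introns of host genes. With high-input windows kept, 8 of 790 counted windows with a snoRNA gene (1.01%) were at least 8-fold higher. The share over all counted windows, with high input left out, was 0.0526%. The window of Hnrnpa3, an hnRNP protein that coats nascent transcripts, held 198 Drosha and 22 Dicer counts against 14 in the parental input, a ratio of 4.85 (4.43 to 5.77). The window of Eif4a2, a translation helicase whose gene hosts Snora81, held 368 Drosha and 50 Dicer counts against 46, a ratio of 4.68 (4.35 to 5.23). A window far from any gene, at chr16:25520001-25525000 and 76728 bp from the nearest, held 329 Drosha and 25 Dicer counts against 18, a ratio of 5.42 (5.03 to 6.26), and its DGCR8 count was 193 against 8 in the DGCR8 input.

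DGCR8, the partner of Drosha, had signal in most of the same windows, although it was measured in another line against its own input. Over all counted windows 9.35% were at least 2-fold higher in DGCR8 than in its input and 4.13% at least 2-fold lower. Of the 124 windows, 108 (87.1%) were at least 2-fold higher in DGCR8 than in its input, against 6.04% of the windows counted for Drosha over Dicer. The median DGCR8 over input ratio there was 2.50, or 2.57 without the milk protein genes, against −0.01 over counted windows. The milk windows differed, with a median of 1.07 and 4 of 8 at 2-fold.

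The reverse choice gave a like result. At least 8-fold higher in DGCR8 than in its input were 91 windows (0.0314% of those counted with high input left out). Of these, 85 (93.4%) were at least 2-fold higher in Drosha than in Dicer, against 11.0% of windows counted for DGCR8, with a median of 2.64 and a range of −0.65 to 7.52. The lists shared 39 windows, 31.5% of the Drosha list and 42.9% of the DGCR8 list. Dicer over parental input was on the low side in both, with a median of −0.30 in the first and −0.32 in the second. Its median over windows counted for Drosha over Dicer was 0.05, and 91 of the 124 were below 0. No window of either list was 2-fold higher. The first list was chosen for Drosha over Dicer, which favours windows with few Dicer reads, so it cannot show whether Dicer is absent there. In each list 2 windows were at least 2-fold lower, the let-7 hairpin window at −1.06 in both, and the lowest at −1.14 in the first and −1.17 in the second. DGCR8 input over parental input had a median of −0.44 in the 124 windows, so input libraries also differed there. On chromosome 14 the median DGCR8 over its input was 0.83, against 0.05 over all counted windows. Windows of that chromosome thus lay closer to the 8-fold limit, and the DGCR8 list was not centred by chromosome.

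**Figure D3:**
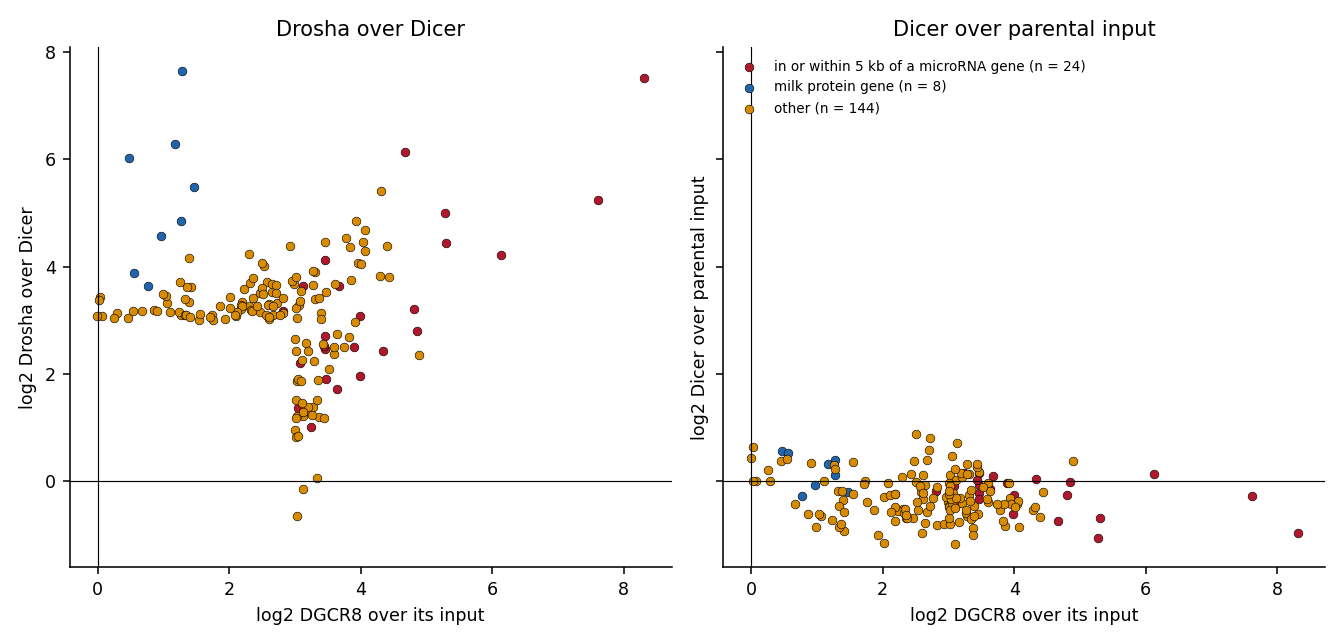
Left, log2 Drosha over Dicer, and right, log2 Dicer over parental input, each against log2 DGCR8 over its own input, for the 176 windows that were 8-fold higher in Drosha than in Dicer or in DGCR8 than in its input; 24 lie in or within 5 kb of a microRNA gene, 8 at milk protein genes and 144 elsewhere. MicroRNA windows lie high on both axes of the left panel, milk windows are high for Drosha with a DGCR8 median of 1.07, and in the right panel no window reaches a log2 ratio of 1.

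By gene, with the windows of a gene summed, 2949 of 40605 counted genes (7.26%) were at least 2-fold higher in Drosha than in Dicer and 4173 (10.3%) at least 2-fold lower, with a median of −0.13. For Drosha over parental input 2242 of 36639 genes (6.12%) were higher and 3828 (10.4%) lower. For Dicer over parental input 17 of 41152 genes (0.0413%) were higher and 12 (0.0292%) lower. Gene lists are described by counts and medians beside these backgrounds, and members that share a window share 1 value.

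Of 38 microRNA genes and hosts of ES cells, 36 were counted in 19 distinct sets of windows, and 27 were at least 2-fold higher in Drosha, 1 lower, with a median of 1.42 and a Dicer over input median of −0.27. In windows of 1 gene only, which leaves out hairpins that share a window, the Drosha over Dicer median was −0.29. Mir302a, Mir302b, Mir302c and Mir302d, which make microRNAs with a seed like that of miR-294-3p in early epiblast, share a window with Mir367. Larp7 and Gm51018 lie in it too, so signal of these genes cannot be told apart. That window held 66 Drosha and 93 Dicer counts, a ratio of 1.37 (0.92 to 1.87). The window of Mir182, Mir183 and Mir96 had 422 and 586 counts, 1.42, where DGCR8 had 11215 against 520 in its input. The lower member was Mirg, a long transcript of the imprinted Dlk1-Dio3 domain with many hairpins, at −1.58; Meg3 and Rian of the same domain were at −0.55 and −0.23. Mir31, with 11 Drosha and 78 Dicer counts, was not counted.

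Most annotated microRNA genes had no such excess. Over all windows with an annotated microRNA gene, 77 of 860 counted (8.95%) were at least 2-fold higher in Drosha, close to the 8.58% of all windows. At 8-fold there were 5 (0.581%), a larger share than the 0.0526% of counted windows with high input left out. The excess thus lay in a few windows. For Dicer over input 1 of 868 was at least 2-fold higher, the window of Mir710 on chromosome 8, with 85 Dicer counts against 20 in the parental input and a ratio of 1.05, on a chromosome with a median of 0.36. It held 37 Drosha counts, a Drosha over Dicer ratio of 0.67. Protein genes with a microRNA in an intron had 3 of 28 higher and 3 lower, with a median of 0.22. Huwe1, a ubiquitin ligase gene with several hairpins, was highest at 1.68, followed by Smc4 at 1.46 and Chm at 1.43. Aatk, a kinase gene of neurons, was lowest at −1.31, before Polr3d at −1.05 and Copz2 at −1.01.

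Hairpins that Dicer cuts without the Microprocessor showed no excess of either enzyme. They are made by splicing (Mir877, Mir702 and Mir1224) or directly by transcription (Mir320 and Mir484), so a Dicer signal there would not need Drosha. Mir484 held 55 Drosha and 205 Dicer counts against 117 in the parental input, a Drosha over Dicer ratio of 0.00 (−0.46 to 0.43) and a Dicer over input ratio of −0.19. Mir702 held 46 Drosha and 626 Dicer counts against 291, with ratios of −1.85 and 0.11, and Mir320 held 53 and 560 against 288, with ratios of −1.49 and −0.04. None of the 5 was 2-fold higher for Drosha over Dicer and 2 were lower, with a median of −0.24, and the median of Dicer over input was −0.19 with a highest value of 0.11.

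Of the lists of genes that make other RNAs, those of snoRNA hosts and histones had the highest medians apart from the milk protein genes. Of 22 snoRNA host genes 17 were at least 2-fold higher and 0 lower, with a median of 2.08; Snhg3, which hosts a snoRNA in ES cells, was highest with 816 Drosha and 256 Dicer counts against 191 in the parental input, a ratio of 3.55. Histone genes, short and without introns, had 50 of 61 counted higher and 3 lower, in 41 distinct sets of windows, with a median of 1.96. H2ac4 and H3c2, which share a window, were highest with 112 and 43 counts and a ratio of 3.17, while the testis genes H2ac1, H2bc1 and H1f7 were the 3 lower ones.

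Translation genes followed. Of 18 translation factors 13 were higher and 0 lower, with a median of 1.63; after Eif4a2, which the snoRNA host list also holds, at 3.10, the nucleolar chaperone gene Npm1 had 732 Drosha and 365 Dicer counts and a ratio of 2.89. Of 80 ribosomal protein genes 57 were higher and 0 lower, with a median of 1.32, led by Rps9 (724 and 327 counts, 3.03) and Rpl27a (548 and 348 counts, 2.54). Of 24 hnRNP genes, a list drawn up after the highest windows were seen, 16 were higher and 0 lower, with a median of 1.26, led by Hnrnpu, a scaffold protein of nuclear RNA, with 967 and 416 counts and a ratio of 3.10.

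Stem-cell and stress genes had smaller medians. Of 28 pluripotency genes 9 were higher and 0 lower, with a median of 0.72; Sox2, a core transcription factor of the stem-cell state, had 428 Drosha and 380 Dicer counts against 248 in the parental input, a ratio of 2.06. Of 16 heat shock genes, in cells not heated, 5 were higher and 0 lower, with a median of 0.49, namely the chaperone genes Hspa8 (2.05), Hsp90ab1 (1.93), Hspd1 (1.89), Hsp90aa1 (1.79) and Hspe1 (1.48). Of 22 counted long noncoding RNA genes 7 were higher and 2 lower; Malat1, a nuclear RNA of speckles, was highest with 1163 Drosha and 628 Dicer counts, a ratio of 2.78, and Miat and Peg13 were the lower ones at −1.67 and −1.14.

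The lists on the other side were developmental or inducible genes. Of 20 immediate early genes, which growth factors switch on within minutes, 1 was higher and 2 lower, with a median of −0.44; Fos had 74 Drosha and 688 Dicer counts against 423 in the parental input, a ratio of −1.31. Egr3 was the other lower one at −1.22, which was 0.000398 with high-input windows left out, and Ier2 the higher one at 1.31. Of 39 Hox genes, which are silent in stem cells, 0 were higher and 11 lower, with a median of −0.45; Hoxa7 was lowest with 16 and 278 counts. After the input bins were set to 0, the median of the Hox genes was 0.04 and that of the immediate early genes 0.05, so their position moved with input level. The centred medians of snoRNA hosts, histone genes and ribosomal protein genes were 2.56, 1.99 and 1.78, and that of the microRNA genes of ES cells was 1.94, so these stayed above 0 under this centring.

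The same centring took away the excess at silent receptor and neuronal genes. Of 23 long neuronal genes 8 were higher, with a median of 0.92, and the centred median was 0.07. Of 116 counted vomeronasal receptor genes 66 were higher and 2 lower, with a median of 1.07, and the centred median was 0.21. The 346 counted olfactory receptor genes had medians of 0.41 and −0.01.

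**Figure D4:**
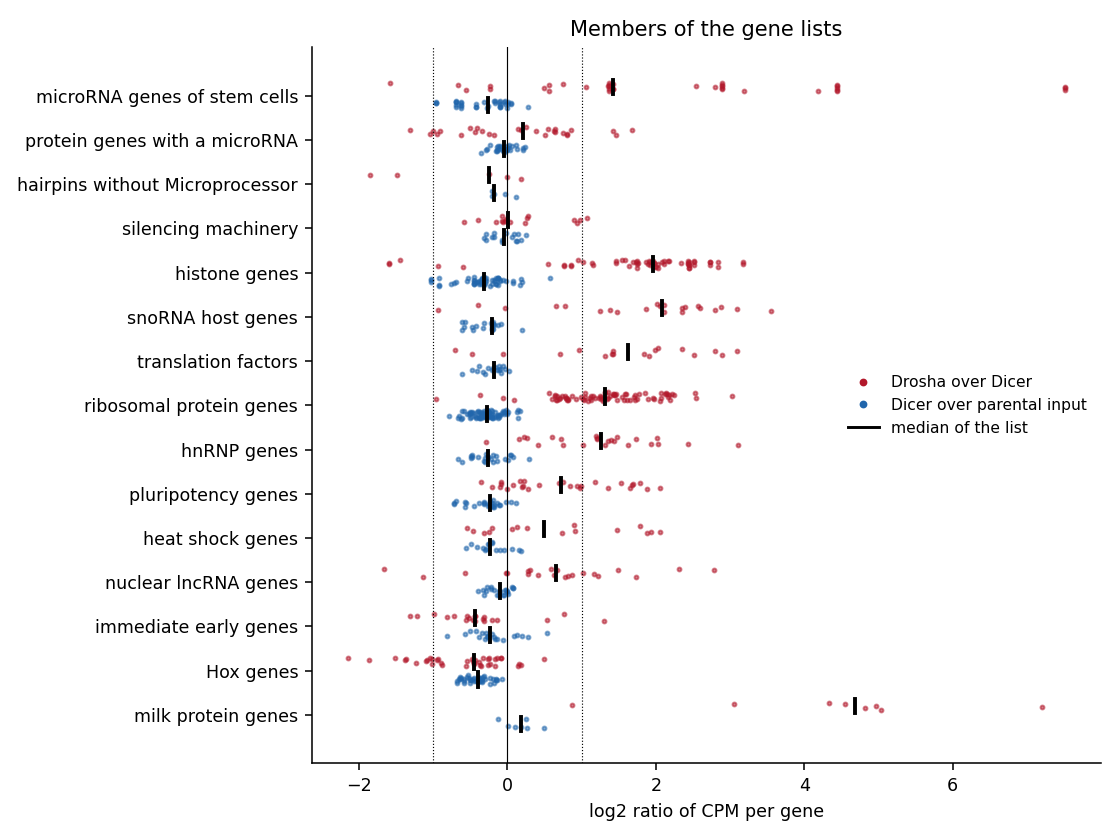
Log2 ratio of CPM per gene for the counted members of 15 gene lists, with Drosha over Dicer in red above Dicer over parental input in blue; black bars are list medians and dotted lines a 2-fold difference. Drosha over Dicer runs up to 7.52 in the microRNA genes of stem cells, with list medians of 2.08 for snoRNA hosts and −0.45 for Hox genes, while the Dicer over input medians of the 15 lists lie between −0.40 and 0.19.

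Among genes with at least 1 CPM of RNA, which make up the RNA quartiles, the Drosha signal also went with the RNA level. RNA came from 2 libraries of parental cells that carry tagged DGCR8, and not from the Drosha and Dicer lines. In these libraries 8 of 8 stem-cell markers were at 190 to 818 CPM, while markers of fibroblasts summed to 11.6 and 10.5 CPM, of primitive endoderm to 19.2 and 22.2 CPM and of neuroectoderm to 53.2 and 56.4 CPM. Genes of the highest RNA quartile had a median Drosha over Dicer ratio of 0.26, the third quartile −0.07, the second −0.23, the lowest −0.28 and genes under 1 CPM −0.19. In the highest quartile 13.7% of 3284 counted genes were at least 2-fold higher and 1.07% lower.

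For Dicer the classes differed by little, and the direction turned with the input used. Its medians over parental input were −0.10 in the highest quartile and −0.01 under 1 CPM, and the median between the inputs was −0.18 and 0.01 in the same classes. The difference of the classes was −0.09 over parental input and 0.11 over the DGCR8 input. Across 12905 genes with at least 1 CPM, Spearman's rho of parental RNA with Drosha over Dicer was 0.31. Across 12958 such genes that with Dicer over input was −0.07. Genes under 1 CPM are outside both, and their median Drosha over Dicer ratio, −0.19, was above that of the lowest quartile, −0.28. Genes are not independent replicates, and the points share window counts where genes overlap. Across 40529 genes, Drosha over Dicer and DGCR8 over its input, which share no library, had Spearman's rho of 0.63, and of 0.44 after centring by input bins.

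Along genes of the highest quartile the Drosha over Dicer ratio was highest just past the start. The median window ratio was −0.22 at 50 kb before the start, 0.02 in the start window, 0.31 at 5 kb and 0.22 at 10 kb past it, and −0.11 at 50 kb. After centring by input bins the start window was closer to its neighbour, with 0.49 at the start, 0.59 at 5 kb and 0.48 at 10 kb. In genes under 1 CPM the start window was at −0.46. Dicer over input was −0.24 at the start of genes of the highest quartile, −0.17 at 5 kb past it and −0.02 at 50 kb on either side. The inputs differed by as much there: by gene, DGCR8 input over parental input had a start-window median of −0.24 in this quartile, and Dicer over input also −0.24.

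**Figure D5:**
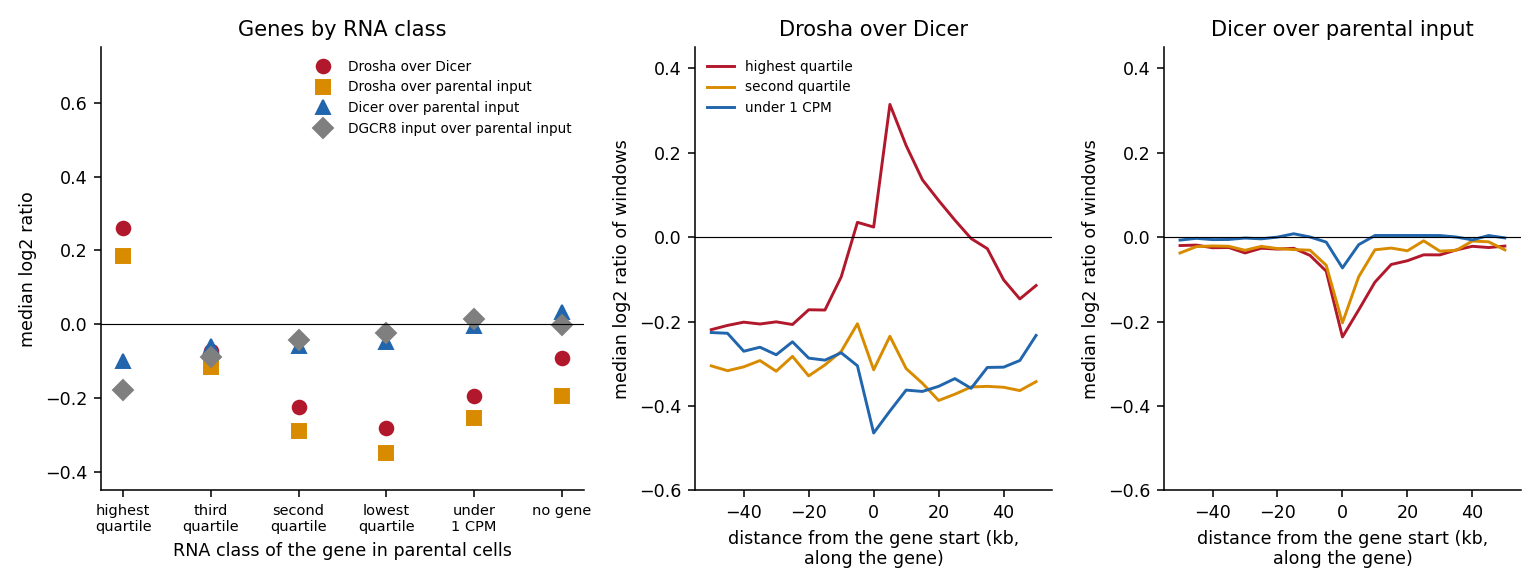
Left, median log2 ratio of genes by RNA class in parental cells, for Drosha over Dicer, Drosha over parental input, Dicer over parental input and DGCR8 input over parental input, with windows without a gene at the right end; middle and right, median log2 ratio of windows by distance in kb from the gene start for 3 RNA classes. Drosha over Dicer is 0.26 in the highest quartile and peaks at 0.31 at 5 kb past the start, while Dicer over input is −0.24 in the start window, as is DGCR8 input over parental input.

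Genes of the silencing machinery showed no excess of either enzyme as a group. Of 16, Ddx17, a helicase that joins the Microprocessor, was 2-fold higher with 725 Drosha and 1278 Dicer counts, a ratio of 1.08, 0 were lower and the median was 0.01; in the start window alone Ddx17 was at −0.29. The gene of Drosha held 1149 Drosha and 5652 Dicer counts against 2558 in the parental input, a ratio of −0.40. Dicer1 held 950 and 2953 counts against 1311, a ratio of 0.26. Dgcr8, whose own transcript carries hairpins that the Microprocessor cuts, held 721 and 1356 counts against 768, a ratio of 0.98 (0.85 to 1.12). None of these checks the tagged protein, since counts of chromatin do not measure it.

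The 10 windows highest for Dicer over input had low input and held no microRNA gene. The highest, chr12:8605001-8610000 with no gene in it, held 105 Dicer counts against 13 in the parental input, a ratio of 1.94 (1.18 to 2.97), but 25 Drosha counts, so Drosha over Dicer was −0.17. Others lay in Cd36, with 95 Dicer counts against 13 and a ratio of 1.80, and in Gm3203, with 107 against 15 and a ratio of 1.77. Among genes with RNA in parental cells, Fbxl14, a ubiquitin ligase gene, was highest for Dicer over input, with 1185 counts against 335 and a ratio of 0.82, below 2-fold.

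Dicer over input differed between chromosomes. Its median was 0.36 on chromosome 8, 0.21 on chromosomes 15 and 19 and −0.28 on chromosome 7, against −0.10 to 0.02 on the other chromosomes. DGCR8 input over parental input was 0.53 on chromosome 8 and −0.61 on chromosome 14. Drosha over parental input was also raised on chromosome 8, at 0.23 against −0.27 over all counted windows. All of these ratios share the parental input, and Drosha over Dicer, which does not use it, was 0.01 on chromosome 8. Copy number of whole chromosomes and signal on them cannot be told apart without an input of the Dicer line. The miR-290 cluster lies on chromosome 7, so its Dicer over input ratios of −0.96 and −0.70 are to be read beside that −0.28. Drosha over Dicer had chromosome medians from −0.51, on chromosome 14, to 0.10, on the X chromosome, small beside the ratios at the microRNA clusters there.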

How the data were processed

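The authors deposited read counts per 5 kb window for the ChIP libraries and read counts per gene for the RNA libraries, whole numbers that were used as deposited. The submitters' processing notes name the aligner Bowtie and the build mm10; the aligner's options and the handling of duplicates are not given in the sources used here. Libraries were taken from the column names, 1 ChIP column could not be mapped to a sample, and 10 RNA columns were not used. Genes and hairpins were placed with a RefSeq table of GRCm38.p6, the build mm10 names, and a gene took the sum of the windows it overlaps. Ratios were computed in Python 3.11.15 with numpy 2.4.6, pandas 2.3.3 and scipy 1.17.1, scaled to library totals, with the pseudocount, minimum and criterion given above, and figures were drawn with matplotlib 3.10.9. Reads are not independent molecules, so intervals cover counting error only. Windows with over 5 times the median parental input (over 175 counts, 5.33% of windows) were left out of the named windows and the 8-fold counts. Scaling alternatives used edgeR 4.0.16 (TMM) and DESeq2 1.42.0 (size factors) in R 4.3.3, with no test of either. The steps were tested on simulated counts with counting error only, which is less than the spread in these libraries. The simulation therefore cannot show how well the intervals cover the real error.

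Genes and windows named are the 10 highest and 10 lowest of each ratio, with windows at least 50 kb apart, the 2 highest and 2 lowest members of each list, all microRNA genes listed and the genes of Drosha, Dicer and DGCR8; other windows named were chosen after their values were seen. Members and lists were chosen with earlier results of these data known. The milk protein, hnRNP and annotated small RNA lists, the centring by input bins, the 8-fold counts and the counts without milk protein genes were added after the data were seen. The comparisons with parental input share that library, so no relation between them is given.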

Additional observations from a re-analysis of the deposited data

How the results depend on the processing

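No paired analysis was possible because each condition had 1 library, so no library could be left out either. TMM scaling lowered the Drosha over Dicer ratios of all windows by 0.17 on the log2 scale, and DESeq2 size factors did so by about as much. Of 2239 values of named genes recomputed under an alternative, 2199 kept their sign and 1992 stayed within the width of their counting interval; of 333 list medians, 314 kept their sign. Among values past 2-fold, the sign turned for Crebzf (−0.82), Ddx17 (−0.29) and Dlg2 (−0.65) in the start window alone, for Egr3 with high-input windows left out (0.000398), and for the microRNA genes of ES cells with windows of 1 gene only (−0.29), which drops the hairpins that share windows.

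The difference between the highest RNA quartile and genes under 1 CPM was 0.46 for Drosha over Dicer and 0.33 with no minimum. For Drosha over input it was 0.44, with 0.26 under no minimum and 0.60 against the DGCR8 input. For Dicer over input it was −0.09 and turned to 0.11 against the DGCR8 input. The cause was not tested.

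The 124 windows at 8-fold became 557 at a minimum of 50 counts, 73 at 200, 1484 with none and 77 with a pseudocount of 5. For Drosha over Dicer, windows higher numbered 68023 at a minimum of 50, 3782 at 200, 106334 with none and 49324 at a fold of 1.5; windows lower numbered 29903 at 200, 74168 with none and 83521 at 1.5. Genes higher numbered 5367 with no minimum, 7028 at 1.5 and 1181 in start windows; genes lower numbered 10234 at 1.5, 2486 with chromosome medians at 0 and 2447 with input bins at 0.

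For Drosha over input, windows higher numbered 47427 at a minimum of 50, 1280 at 200, 110350 with none, 23904 at 1.5, 6410 with DESeq2 size factors, 6470 with TMM, 15219 with the median gene-free window at a ratio of 1, 16781 with chromosome medians at 0 and 17790 against the DGCR8 input. Windows lower numbered 11249 at 200, 74063 with none, 58564 at 1.5, 18851 with chromosome medians at 0 and 12729 with input bins at 0. Genes higher numbered 3559 at 50, 1469 at 200, 5282 with none, 5589 at 1.5, 1378 with DESeq2 size factors, 1389 with TMM, 3507 with the gene-free median, 597 in start windows and 3899 with chromosome medians. Genes lower numbered 5755 with no minimum, 9844 at 1.5, 6063 with DESeq2 size factors, 6010 with TMM, 2363 with the gene-free median, 1675 with chromosome medians and 1532 with input bins. The split of higher against lower for Drosha thus moves with the scaling and the input level.

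For Dicer over input, windows higher numbered 2708 at a minimum of 50, 65 at 200, 10755 with none, 249 with a pseudocount of 5, 9565 at 1.5, 262 with chromosome medians, 1051 against the DGCR8 input and 58 with input bins. Windows lower numbered 778 at 50, 24 at 200, 6438 with none, 54 with a pseudocount of 5 and 5572 at 1.5. Genes higher numbered 64 at 50, 1 at 200, 347 with none, 8 with a pseudocount of 5, 447 at 1.5, 8 in start windows, 5 with chromosome medians and 42 against the DGCR8 input. Genes lower numbered 44 at 50, 3 at 200, 289 with none, 7 with a pseudocount of 5, 540 at 1.5, 7 with windows of 1 gene, 7 with chromosome medians and 21 against the DGCR8 input.

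The depth of the Drosha library, with a median of 25 counts per window, limits what can be seen: with the Dicer median of 72 a window at the median stays under the minimum of 100. With 1 library per protein, differences between lines, pulldowns and library preparations cannot be told apart from differences between the proteins.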
